A study of Oryza sativa Indica Group with 4 samples.

Results

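The fatty acid desaturases of the rice leaf blade were examined at 9 loci, chosen as a list of locus identifiers: 3 FAD2 copies, 2 FAD3 copies, FAD6, FAD7, FAD8 and the stearoyl-ACP desaturase SSI2. Of these 9 loci, 8 were among the 28458 loci with at least 1 read. The names follow the order of that list, since the files give identifiers only. Seedlings of 2 genotypes were used. One was togr1-1 (labelled tog1), a recessive spontaneous mutant of the DEAD-box RNA helicase TOGR1 with an amino acid substitution, and the other was the wild type (WT), the indica variety Zhongxian 3037 in which the mutant was found. Seedlings of 4 days were moved to chambers at 30 or 25 °C with a 12 h day at 80% humidity, stayed there for 18 days and were 22 days old when the blades of the fourth leaves were taken and pooled into 100 mg for each library. Each combination of genotype and temperature gave 1 RNA-seq library, so the study has 4 libraries and no replicates, and pool, chamber and harvest cannot be told apart from genotype or temperature.

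Desaturases put double bonds into the acyl chains of lipids, and more double bonds make a membrane more fluid at a given temperature. SSI2 is a soluble enzyme of the plastid stroma that makes oleate while the chain is still bound to acyl carrier protein. FAD2 and FAD6 then add a second double bond, FAD2 in the endoplasmic reticulum (ER) and FAD6 in the plastid, and FAD3 (ER) and FAD7 and FAD8 (plastid) add the third. In Arabidopsis, FAD8 is known as the cold-favoured isozyme beside FAD7, and leaves of many plants hold less trienoic fatty acid when grown warm.

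The reads counted on transcripts came to between 11959859 and 12371522 per library. RPKM divides the reads by transcript length and library size, and is used below for levels. Reads divided by the library total (scaled reads) are used for ratios. The 95% intervals given with ratios and shares cover counting error only, since each condition has 1 library. PCR reads without molecular identifiers are not independent molecules, so the intervals may be too narrow even for that error. Of 6 loci taken as leaf blade markers (Rubisco small subunits and light-harvesting chlorophyll a/b proteins), 5 were read in all libraries and 1 had no reads in any. A locus taken as a root marker had 0 reads in 3 libraries and 2 reads in the WT at 25 °C. The summed RPKM of the leaf markers was 15993 at 30 °C against 19224 at 25 °C in togr1-1, and 8455 at 30 °C against 20434 at 25 °C in the WT, so the WT library at 30 °C stood apart from the others. TOGR1 (LOC_Os03g46610) had 156 reads in togr1-1 against 180 in the WT at 30 °C, and 127 against 175 at 25 °C. As the mutation is a substitution, its read number does not check the labels.

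Among the 9 loci, the plastid enzymes made up nearly all of the transcript. Summed over FAD6, FAD7, FAD8 and SSI2, the level was 281.8 RPKM in togr1-1 at 30 °C and 478.7 RPKM at 25 °C, and 219.2 RPKM in the WT at 30 °C and 372.4 RPKM at 25 °C. The FAD2 and FAD3 copies of the ER together had 6.86 and 9.75 RPKM in togr1-1 at 30 and 25 °C, and 4.69 and 7.65 RPKM in the WT. Both sums were lower at 30 °C in both genotypes. The highest of the 9 loci depended on temperature. At 30 °C it was SSI2, at 1.10 times the RPKM of FAD7 in togr1-1 (95% interval 1.05 to 1.16) and 2.80 times in the WT (2.61 to 3.004). At 25 °C it was FAD7, at 1.58 times the RPKM of SSI2 in togr1-1 (1.52 to 1.65) and 1.28 times in the WT (1.22 to 1.34). FAD6 was the third locus in each library and the FAD2 copy LOC_Os02g48560 the next in all but the WT at 30 °C. Among the low loci several neighbours in the order could not be told apart by their reads, namely FAD3 LOC_Os12g01370 and FAD8 in togr1-1 at 30 °C and in the WT at 25 °C, FAD2 LOC_Os02g48560 and FAD8 in togr1-1 at 25 °C, and FAD3 LOC_Os12g01370 and FAD2 LOC_Os02g48560 in the WT at 30 °C. FAD3 LOC_Os11g01340 could not be told apart from FAD8 in the WT at 30 °C, nor from FAD2 LOC_Os07g23430 in either togr1-1 library.

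**Figure D1:**
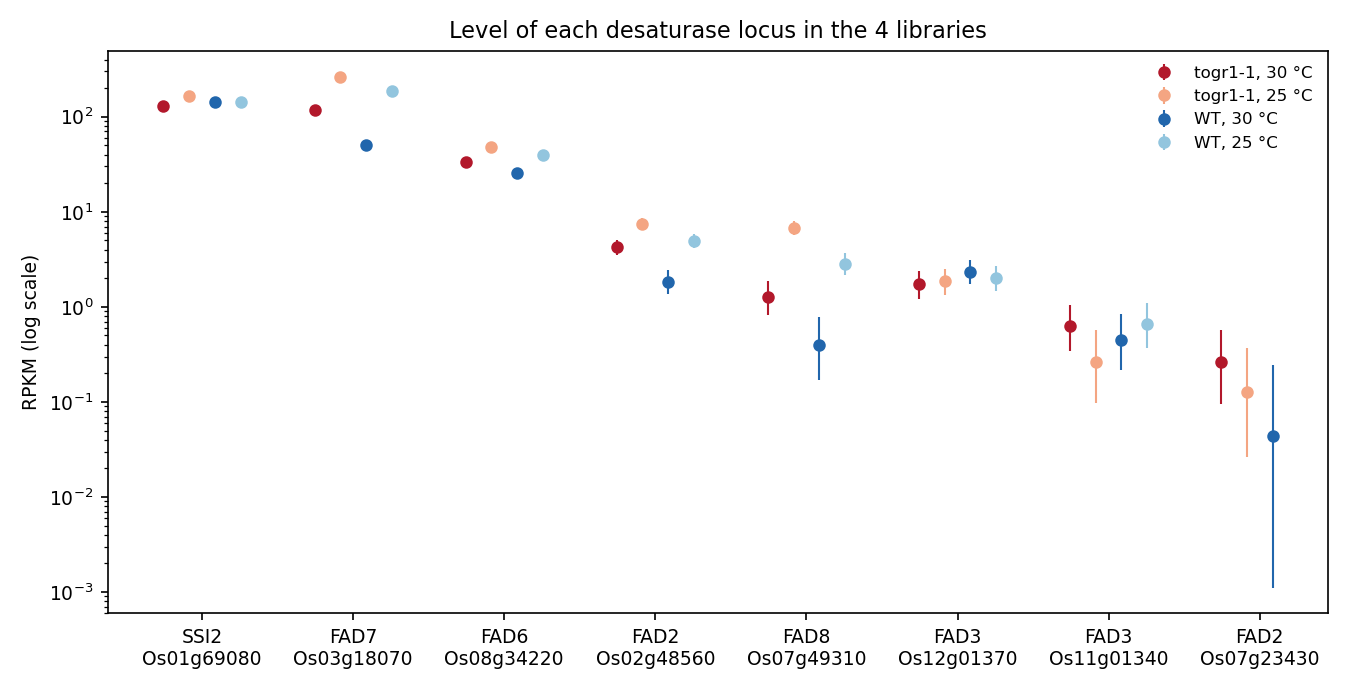
RPKM (log scale) of the 8 desaturase loci with reads, 1 point per library, with bars for the 95% Poisson interval of the reads. The points of FAD7, FAD8, FAD6 and FAD2 LOC_Os02g48560 are lower at 30 than at 25 °C in both genotypes, and FAD2 LOC_Os07g23430 has no point in the WT at 25 °C, where it had 0 reads.

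To see how the transcripts differed with growth temperature, the reads at 30 °C were compared with those at 25 °C within each genotype. FAD7 and FAD8, the plastid enzymes of the last desaturation step, were lower at 30 °C in both genotypes, and the main FAD2 copy was lower with them. FAD6 was lower by less, SSI2 was nearly level in the WT, and no temperature difference of the FAD3 copies exceeded counting error. A locus was called a DEG (differentially expressed gene) when the scaled reads of the 2 libraries differed at least 2-fold with an adjusted p-value of at most 0.001 in a two-sided exact binomial test on their reads. This test compares the libraries and not the conditions. By this rule 2 of 8 loci with reads were DEGs in togr1-1 and 3 of 8 in the WT, all lower at 30 °C. Over all loci tested, 2.68% were DEGs lower at 30 °C in togr1-1 and 4.5% in the WT. Without the fold minimum (past counting error), 5 of 8 were lower in togr1-1 against 9.56% of all loci, and 4 of 8 in the WT against 10.4%. The shares of all loci include those with few reads and are not matched for read depth. A test across the 4 libraries, an additive genotype and temperature fit in edgeR with 1 residual degree of freedom, left 0 of 8 loci with an adjusted p-value of at most 0.05 for temperature, against 0.0357% of all loci. In that fit 4 of 8 (FAD2 LOC_Os02g48560, FAD6, FAD7 and FAD8) had an unadjusted p-value below 0.05, as did 3229 of all 22378 loci tested. The adjusted p-value in the fit was 0.0981 for FAD7 and 0.0982 for FAD8. FAD7 and FAD8 were DEGs in both genotypes, which was so in that direction for 1.01% of the 24433 loci with a read in each genotype.

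FAD7 (LOC_Os03g18070), which desaturates dienoic to trienoic chains on chloroplast lipids, had 2494 reads in togr1-1 at 30 °C against 5606 at 25 °C, and 1063 reads in the WT at 30 °C against 3953 at 25 °C. These reads correspond to 117.6 and 259.4 RPKM in togr1-1 and to 50.9 and 185.2 RPKM in the WT. Both 30 °C libraries lay below both 25 °C libraries, with the WT at 30 °C the lowest. The log2 ratio for 30 over 25 °C came to -1.14 in togr1-1 (95% interval -1.21 to -1.07), or 2.21-fold lower, and -1.86 in the WT (-1.96 to -1.77), or 3.64-fold lower. Of the loci that had 100 or more reads in the pair compared, 2.55% had a lower ratio than FAD7 in togr1-1 and 1.71% in the WT. The leaf markers moved the same way, with a log2 ratio of their summed RPKM of -0.27 in togr1-1 and of -1.27 in the WT. Of the 5 markers with reads, 3 were lower in togr1-1 and all 5 in the WT. Their part in the result was not tested. In such bulk samples, fewer cells of a type and less RNA per cell cannot be told apart.

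FAD8 (LOC_Os07g49310), the second plastid enzyme of that step, was read far less. It had 26 reads in togr1-1 at 30 °C against 141 at 25 °C, and 8 reads in the WT at 30 °C against 59 at 25 °C. The levels were 1.27 and 6.74 RPKM in togr1-1, and 0.396 and 2.86 RPKM in the WT. Again both 30 °C libraries were below both 25 °C libraries. The log2 ratio for 30 over 25 °C came to -2.41 in togr1-1 (95% interval -3.08 to -1.80), or 5.32-fold lower, with an adjusted p-value of 1.06e-18 in the exact binomial test. In the WT it was -2.85 (-4.13 to -1.78), or 7.22-fold lower, with an adjusted p-value of 9.35e-10 in the same exact test. These were the lowest ratios among the 9 loci in each genotype. Of the loci that had 100 or more reads in the pair, 0.162% had a lower ratio than FAD8 in togr1-1 and 0.681% in the WT, although FAD8 itself had fewer than 100 reads there.

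FAD8 took a smaller share of the FAD7 and FAD8 reads at 30 °C in togr1-1, whereas in the WT this was within counting error. In togr1-1 the share was 1.03% at 30 °C (95% Wilson interval 0.705 to 1.51) against 2.45% at 25 °C (2.08 to 2.89), and these intervals do not overlap. In the WT it was 0.747% at 30 °C (0.379 to 1.47) against 1.47% at 25 °C (1.14 to 1.89), and these overlap. With 8 reads at 30 °C in the WT, a change of the share there was not resolved at this depth.

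**Figure D2:**
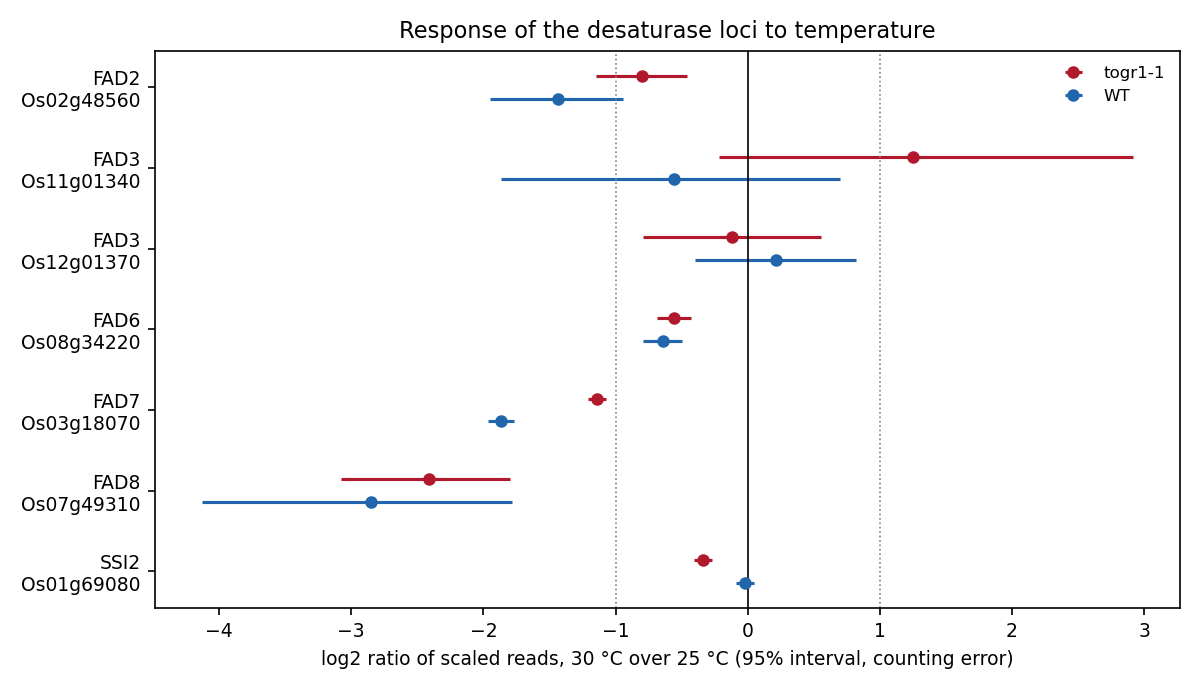
Log2 ratio of scaled reads, 30 over 25 °C, for 7 desaturase loci in togr1-1 and the WT, with 95% Clopper-Pearson intervals (counting error only) and dotted lines at a 2-fold difference. FAD7 and FAD8 lie left of the 2-fold line in both genotypes, FAD2 LOC_Os02g48560 does so in the WT, and the intervals of both FAD3 copies include 0.

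The FAD2 copy LOC_Os02g48560, an ER enzyme that makes linoleate from oleate, had 112 reads in togr1-1 at 30 °C against 199 at 25 °C, and 47 reads in the WT at 30 °C against 130 at 25 °C. Its summed RPKM was 4.24 and 7.49 in togr1-1, and 1.85 and 4.95 in the WT. The libraries fell in the same order as for FAD7. The log2 ratio for 30 over 25 °C came to -0.80 in togr1-1 (95% interval -1.15 to -0.46), which was past counting error but under 2-fold, and -1.44 in the WT (-1.95 to -0.95), which made it a DEG with an adjusted p-value of 4.56e-09 in the exact binomial test. Among loci with 100 or more reads in the pair, 6.23% had a lower ratio than this copy in togr1-1 and 3.05% in the WT.

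This locus is the only one of the 9 with more than 1 transcript model read. The model LOC_Os02g48560.2 held 66.1% of its reads in togr1-1 at 30 °C (95% Wilson interval 56.9 to 74.2) and 68.3% at 25 °C (61.6 to 74.4), and 76.6% in the WT at 30 °C (62.8 to 86.4) and 69.2% at 25 °C (60.8 to 76.5). This model held most of the reads in each library, and its intervals overlap. The model LOC_Os02g48560.1 took 32.1% of the reads in togr1-1 at 30 °C (24.2 to 41.3) and 22.6% at 25 °C (17.4 to 28.9), and 14.9% in the WT at 30 °C (7.41 to 27.7) and 22.3% at 25 °C (16.0 to 30.2). How reads common to the models were divided is not given in the sources used here, and so the sum over models is the firmer value. The other FAD2 copies were hardly read. LOC_Os07g23430 had 6 reads at 30 °C against 3 at 25 °C in togr1-1, and 1 against 0 in the WT. LOC_Os07g23410 is not listed in the data, which hold only loci with a read. It was therefore unread, absent from the annotation used or left out before the RPKM values were computed, and these cannot be told apart. If unread, 0 reads allow up to 3 reads in a library. The column totals equal the totals that the RPKM values imply, so no reads were lost after the RPKM values were computed. Whether reads were left out before that step cannot be told.

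FAD6 (LOC_Os08g34220), the plastid counterpart of FAD2, had 799 reads in togr1-1 at 30 °C against 1197 at 25 °C, and 606 reads in the WT at 30 °C against 966 at 25 °C. The levels were 33.1 and 48.6 RPKM in togr1-1, and 25.5 and 39.7 RPKM in the WT. Its log2 ratio for 30 over 25 °C came to -0.56 in togr1-1 (95% interval -0.69 to -0.43) and -0.64 in the WT (-0.79 to -0.49). Neither reached 2-fold, and both were past counting error, with adjusted p-values of 2.73e-16 in togr1-1 and 4.83e-17 in the WT by the exact binomial test. Among loci with 100 or more reads in the pair, 12.1% had a lower ratio than FAD6 in togr1-1 and 11.9% in the WT.

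SSI2 (LOC_Os01g69080), which supplies the oleate for the later steps, had 3092 reads in togr1-1 at 30 °C against 3980 at 25 °C, and 3344 reads in the WT at 30 °C against 3466 at 25 °C. Its log2 ratio was -0.34 in togr1-1 (95% interval -0.41 to -0.27, adjusted p-value 2.90e-21 in the exact binomial test). In the WT it was -0.02 (-0.09 to 0.05) and was -0.10 with TMM and -0.11 with DESeq2 factors in place of library totals. The level of SSI2 ranged from 129.8 to 164.0 RPKM over the 4 libraries. Its range on the log2 scale, 0.34, was wider than that of only 14.1% of the 13667 loci with at least 200 reads in all, whereas FAD8 exceeded 99.0%, FAD7 96.3%, FAD2 LOC_Os02g48560 94.1% and FAD6 69.5% of them.

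The FAD3 copies, ER enzymes that make linolenate, were low throughout. LOC_Os12g01370 had 38 reads in togr1-1 at 30 °C against 42 at 25 °C, and 51 reads in the WT at 30 °C against 45 at 25 °C. LOC_Os11g01340 had 14 reads in togr1-1 at 30 °C against 6 at 25 °C, and 10 reads in the WT at 30 °C against 15 at 25 °C. Reads of near-identical copies could be divided between them, so that their sum is safer than either. Summed, they had 52 reads in togr1-1 at 30 °C against 48 at 25 °C, and 61 reads in the WT at 30 °C against 60 at 25 °C. The log2 ratio of the sum was 0.14 in togr1-1 (95% interval -0.45 to 0.74) and 0.05 in the WT (-0.48 to 0.59). A 2-fold difference lies outside both intervals, but differences small enough to lie within them were not resolved at this depth.

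**Figure D3:**
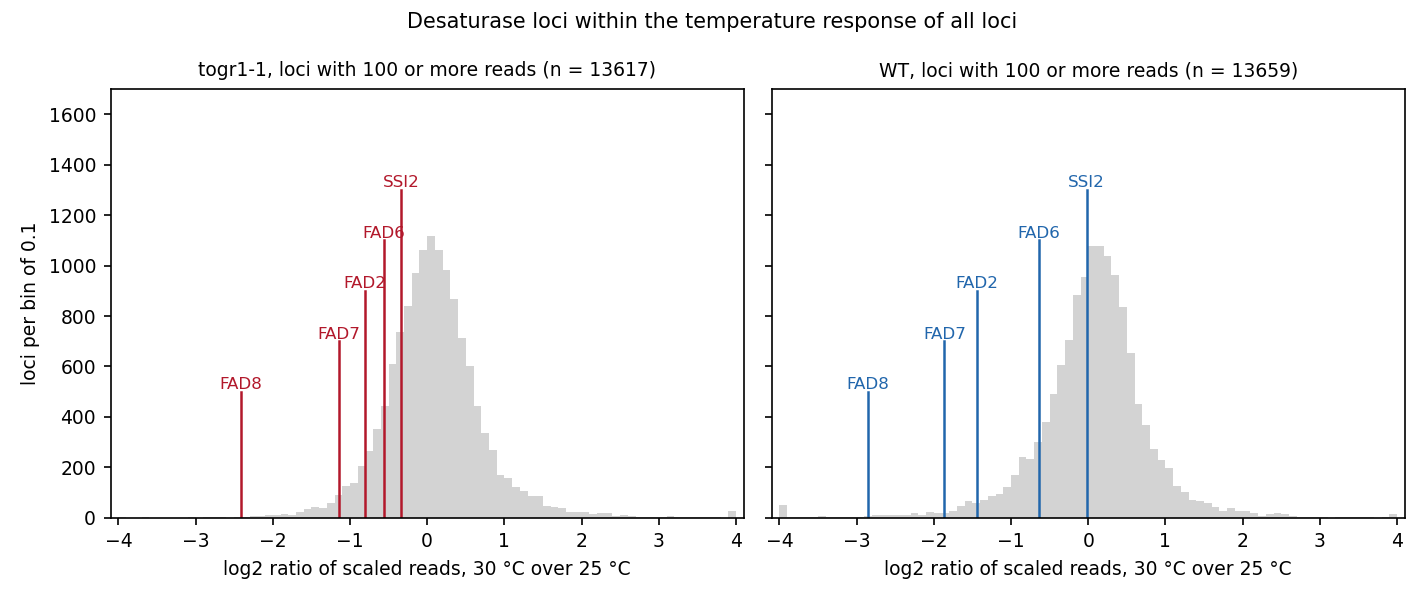
Histograms of the log2 ratio of scaled reads, 30 over 25 °C, of all loci that had 100 or more reads in the pair compared (togr1-1 left, WT right; ratios past 4 in size are drawn in the end bins), with lines at 5 desaturase loci whose heights have no meaning. FAD8, FAD7 and FAD2 LOC_Os02g48560 lie in the left tail in both genotypes, and SSI2 lies within the bulk; FAD8 had under 100 reads in the WT and is drawn for comparison.

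By desaturation step, the enzymes of the last step in the plastid were lower by the most. FAD7 and FAD8 together had 118.9 RPKM in togr1-1 at 30 °C against 266.1 RPKM at 25 °C, and 51.3 RPKM in the WT at 30 °C against 188.1 RPKM at 25 °C. The ratio of their RPKM to that of FAD6, the preceding step, was 3.59 in togr1-1 at 30 °C against 5.47 at 25 °C, and 2.01 in the WT at 30 °C against 4.73 at 25 °C. In the ER the corresponding ratio of FAD3 to FAD2 moved the other way, to 0.522 in togr1-1 at 30 °C against 0.280 at 25 °C, and to 1.48 in the WT at 30 °C against 0.544 at 25 °C. There the FAD2 copies were lower while the FAD3 copies were level within counting error. SSI2 made up 45.0% of the RPKM of the 9 loci in togr1-1 at 30 °C against 33.6% at 25 °C, and 63.6% in the WT at 30 °C against 38.0% at 25 °C.

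**Figure D4:**
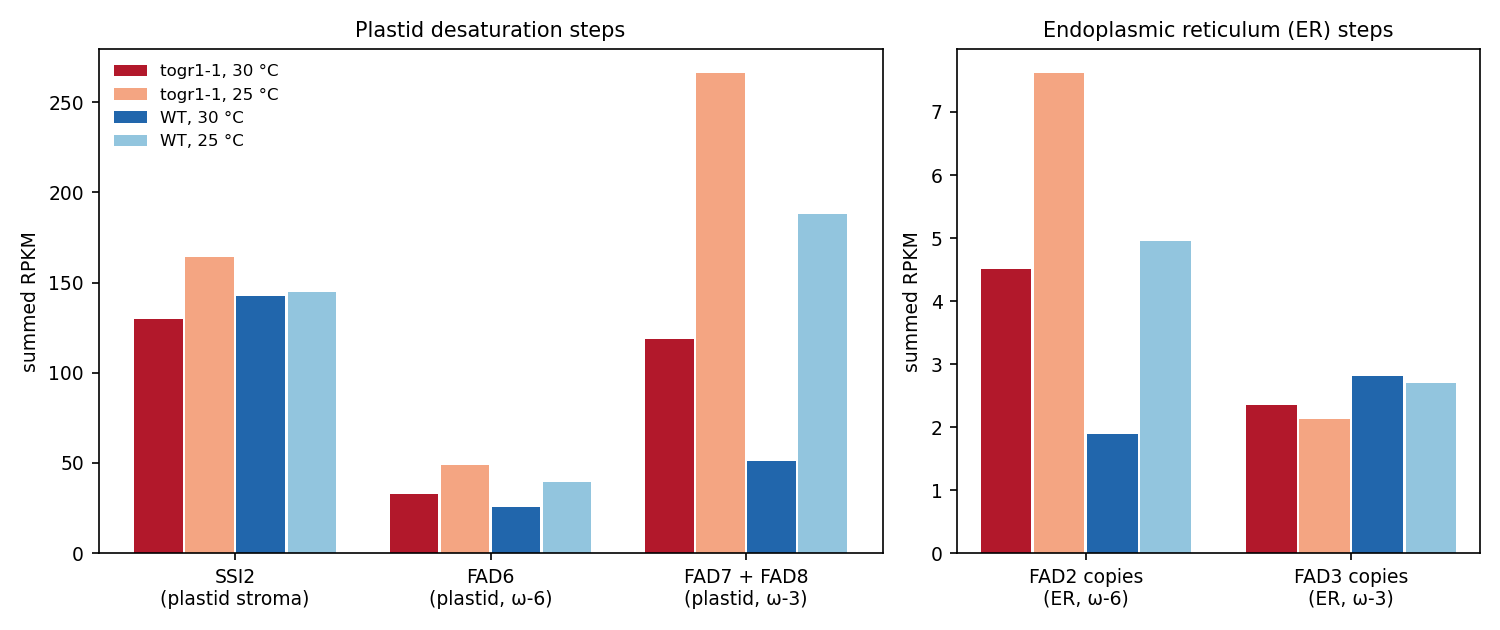
Summed RPKM of each desaturation step in the 4 libraries, plastid steps left and ER steps right, on axes of different scale that start at 0. FAD7 + FAD8 reached 266.1 RPKM in togr1-1 at 25 °C and 51.3 RPKM in the WT at 30 °C, whereas the FAD3 copies stayed between 2.13 and 2.80 RPKM.

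The genotypes were then compared at each temperature. FAD7, FAD8, FAD6 and the main FAD2 copy each had more scaled reads in togr1-1 than in the WT at both temperatures. At 30 °C, FAD7 and FAD2 LOC_Os02g48560 were DEGs, 2 of 8 loci against 4.08% of all loci tested that were DEGs higher in togr1-1. At 25 °C, FAD8 was the only one, 1 of 8 loci against 1.55%. Past counting error at any fold, 3 of 8 were higher in togr1-1 at 30 °C (FAD2 LOC_Os02g48560, FAD6 and FAD7) against 8.09% of all loci, and 4 of 8 at 25 °C (FAD6, FAD7, FAD8 and SSI2) against 7.3%. These shares are not matched for read depth either. In the additive edgeR fit over the 4 libraries, 0 of 8 had an adjusted p-value of at most 0.05 for genotype, against 0.00894% of all loci. In that fit 3 of 8 (FAD2 LOC_Os02g48560, FAD7 and FAD8) had an unadjusted p-value below 0.05, as did 1636 of all 22378 loci tested. These comparisons use the same libraries as those between temperatures, so they are not a separate line of evidence.

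For FAD7 the log2 ratio of togr1-1 over WT was 1.21 at 30 °C (95% interval 1.10 to 1.31), or 2.31-fold higher, with an adjusted p-value of 7.93e-124 in the exact binomial test. At 25 °C it was 0.49 (0.43 to 0.55), or 1.40-fold higher. The summed RPKM of the leaf markers had a log2 ratio of togr1-1 over WT of 0.92 at 30 °C and of -0.09 at 25 °C. Of the 6 markers, 1 had no reads in any library, and 0 were lower in togr1-1 at 30 °C and 4 at 25 °C. Their part in these differences was not tested. For FAD8 the log2 ratio was 1.68 at 30 °C (0.49 to 3.03), with 26 reads in togr1-1 against 8 in the WT and an adjusted p-value of 0.0115 that missed the threshold of the exact test. At 25 °C it was 1.24 (0.79 to 1.70), with 141 reads against 59 and an adjusted p-value of 1.09e-07 in the exact test.

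For FAD2 LOC_Os02g48560 the log2 ratio of togr1-1 over WT was 1.23 at 30 °C (95% interval 0.73 to 1.75, adjusted p-value 3.48e-06 in the exact binomial test). At 25 °C it was 0.60 (0.27 to 0.93), and the adjusted p-value of 0.00143 missed the threshold of the exact test with library totals. It passed with TMM factors (0.000523) and with DESeq2 size factors (0.000649), which makes 5 of 8 loci past counting error at 25 °C in place of 4. The call at 30 °C was lost when the most-read model, LOC_Os02g48560.2, stood for the locus, with a log2 ratio of 1.02 and an adjusted p-value of 0.00192 in the exact test. FAD6 was higher in togr1-1 by a log2 ratio of 0.38 at 30 °C (0.22 to 0.53) and of 0.29 at 25 °C (0.17 to 0.42). SSI2 had a log2 ratio of -0.13 at 30 °C (-0.21 to -0.06) and of 0.18 at 25 °C (0.12 to 0.25). At 30 °C its adjusted p-value of 0.00101 missed the threshold of the exact test. The SSI2 ratio at 30 °C was -0.09 with TMM and -0.07 with DESeq2 factors in place of library totals. The FAD3 sum had -0.25 at 30 °C (-0.81 to 0.31) and -0.34 at 25 °C (-0.92 to 0.23), both within counting error.

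**Figure D5:**
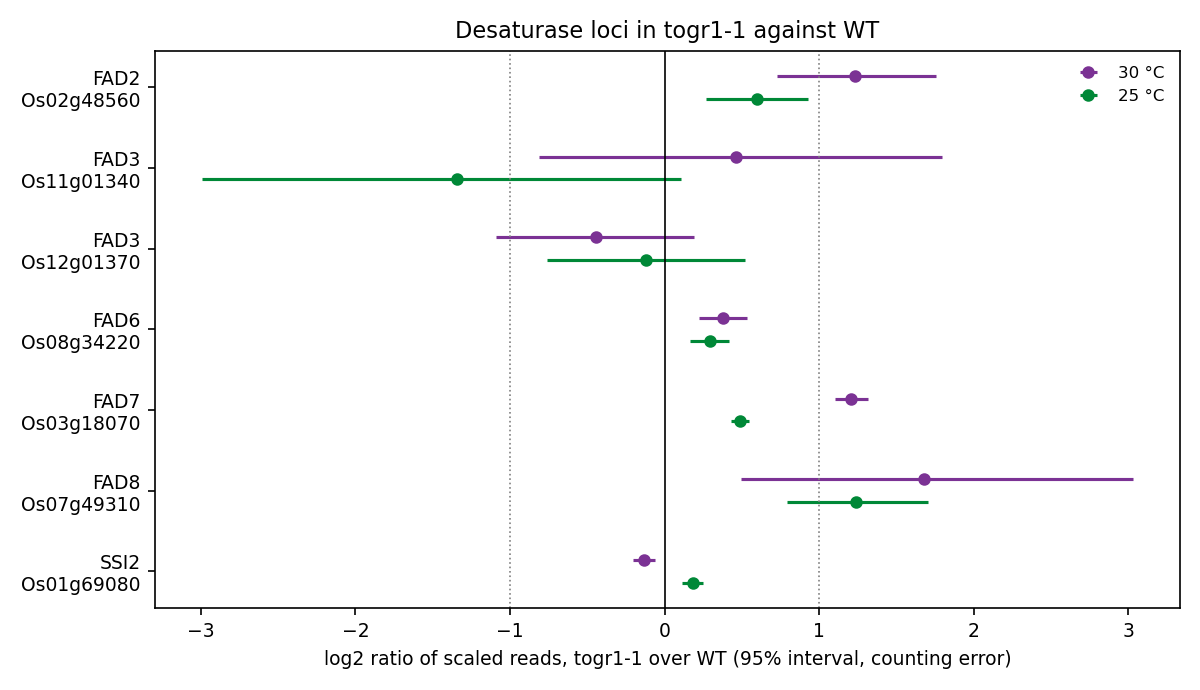
Log2 ratio of scaled reads, togr1-1 over WT, at 30 and at 25 °C for 7 desaturase loci, with 95% Clopper-Pearson intervals (counting error only) and dotted lines at a 2-fold difference. FAD2 LOC_Os02g48560, FAD6, FAD7 and FAD8 lie right of 0 at both temperatures with intervals that exclude it.

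Of the 5 loci with at least 200 reads in all, 4 (FAD2 LOC_Os02g48560, FAD6, FAD7 and FAD8) placed the libraries in one order, with togr1-1 at 25 °C highest, then the WT at 25 °C, then togr1-1 at 30 °C, and the WT at 30 °C lowest. This order was noticed after the values had been seen and was that of 5.63% of the 13667 loci with as many reads. SSI2 had another order, with togr1-1 at 30 °C lowest. By the Euclidean distance of the centred log2(RPKM + 0.1) values over the 4 libraries, FAD2 LOC_Os02g48560 and FAD7 were each other's nearest members, at 0.418. For FAD7, 22 other loci lay nearer than that FAD2 copy, and for the FAD2 copy 54 other loci lay nearer than FAD7. FAD7 was also the nearest member to FAD8, at 1.09. The loci nearest to FAD8, which had the widest range of the members, were LOC_Os07g08150 (0.233), LOC_Os01g72330 (0.336) and LOC_Os07g08160 (0.507). With 4 libraries such distances only describe the profiles.

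Whether the temperature response differed between the genotypes was put to Fisher's exact test, two-sided, with the reads of all 4 libraries. For FAD7 the response in togr1-1 exceeded that in the WT by 0.72 on the log2 scale (95% Woolf interval 0.60 to 0.84), so the transcript was lower by less at 30 °C in togr1-1, with an adjusted p-value of 5.44e-32 in the exact test. For SSI2 the difference was -0.32 (-0.41 to -0.22), with an adjusted p-value of 4.03e-09 in the exact test. Of 13040 loci with at least 100 reads in each genotype, 25.8% differed past counting error. The differences of FAD6 (0.09, -0.11 to 0.28), FAD8 (0.44, -0.78 to 1.66) and FAD2 LOC_Os02g48560 (0.64, 0.05 to 1.22) missed the threshold in the exact test, with adjusted p-values of 0.686, 0.873 and 0.119. So did those of FAD3 LOC_Os11g01340 (1.80, 0.0050 to 3.60) and LOC_Os12g01370 (-0.33, -1.19 to 0.53), which lay in opposite directions, with adjusted p-values of 0.206 and 0.875 in the exact test. With a difference of at least 2-fold required as well, 0 of 8 loci passed, against 5.37% of all loci. An unadjusted p-value below 0.05 in the exact test was found for 3 of 8, and the share of all loci below 0.05 is not given here. A 2-fold difference lay within the intervals of FAD8, FAD2 LOC_Os02g48560 and both FAD3 copies.

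A wider list of 13 loci, taken as further acyl-ACP desaturases and enzymes of fatty acid synthesis and given by identifier only, held 0 DEGs in each of the comparisons above. Between temperatures, 4 of the 10 with reads in togr1-1 and 4 of 13 in the WT had an unadjusted p-value below 0.05 in the exact binomial test. Of these, 2 in togr1-1 and 2 in the WT were higher at 30 °C past counting error, against 13.5% and 14.4% of all loci. These shares are not matched for read depth, and the share of all loci with an unadjusted p-value below 0.05 is not given here. The median log2 ratio for 30 over 25 °C of the 6 that had 100 or more reads in the pair was 0.15 in togr1-1 and 0.08 in the WT. The medians of all loci with as many reads were 0.06 in togr1-1 and 0.10 in the WT. Those of the 5 desaturases with as many reads in togr1-1 and of the 4 in the WT were -0.80 and -1.04. The highest locus of the wider list had 155.0 and 126.2 RPKM in togr1-1 at 30 and 25 °C, and 149.8 and 147.8 RPKM in the WT. This is near the level of SSI2, so the 9 loci may not cover all desaturase transcript. Its log2 ratio for 30 over 25 °C was 0.30 in togr1-1 and 0.02 in the WT. Of the 6, 3 were lower at 30 °C in togr1-1 and 2 in the WT.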

How the data were processed

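RNA from pooled leaf blades was sequenced on an Illumina HiSeq instrument, and the library protocol does not mark strand, so reads of overlapping antisense genes cannot be told apart. The authors deposited read counts per transcript model, without normalization, and RPKM values, which divide each count by model length and library total. The deposited model lengths (in bases) are another, unscaled value that was not used in a test, and the authors' own columns of ratios, p-values and FDR were not used. The aligner, genome build and annotation release are not given in the sources used here. Of the 9 loci, 0 were matched in the RefSeq table (assembly ASM3414082v1), and positions and sequences are not shown.

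Counts and RPKM were summed over the models of a locus. Reads of 2 libraries were compared by an exact binomial test with library totals as expectation, and those of 4 by Fisher's exact test, with Benjamini-Hochberg adjustment over all loci with a read. With 1 library per condition, these tests compare libraries. An additive genotype and temperature fit over the 4 libraries (edgeR quasi-likelihood test, TMM, loci with at least 10 reads) was added after seeing the data. All 9 loci and TOGR1 were named, and loci of the wider list only if called. The members and lists were chosen with earlier results of these data known. A count of 0 was read as allowing 3 reads. Alternatives were TMM and DESeq2 factors, single models, another fold, a read filter, edgeR with an assumed spread and RPKM + 0.1. Versions were Python 3.11.15, scipy 1.17.1, pandas 2.3.3, R 4.3.3, edgeR 4.0.16 and DESeq2 1.42.0.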

Additional observations from a re-analysis of the deposited data

Results flagged for a closer look

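The temperature responses of FAD7 and SSI2 differed between the genotypes past counting error in Fisher's exact test over all 4 libraries, which compares libraries and not plants. So did those of 25.8% of the 13040 loci with at least 100 reads in each genotype. For FAD7 the response in togr1-1 minus that in the WT was 0.72 on the log2 scale, and the transcript was lower at 30 °C in both genotypes. For SSI2 it was -0.32, with a log2 ratio of 30 over 25 °C of -0.34 in togr1-1 and -0.02 in the WT. Neither difference reached 2-fold.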

How the results depend on the processing

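With 1 library per condition no replicate could be left out. No paired analysis was possible either, because no condition has replicates to pair. An additive genotype and temperature fit was added after seeing the data. It tests a temperature effect and a genotype effect, each over all 4 libraries, and not the 4 comparisons. For either effect it gave 0 DEGs among the desaturases and 0 over all loci by the same thresholds. In this edgeR fit, 3229 of 22378 loci had an unadjusted p-value below 0.05 for temperature and 1636 for genotype. TMM factors and DESeq2 size factors changed no direction and no DEG call of the 37 log2 ratios of desaturase loci, but took FAD2 LOC_Os02g48560 past counting error between genotypes at 25 °C, and moved the median of all loci by less than 0.1 on the log2 scale. With RPKM + 0.1 no direction changed. With the most-read model of each locus, 1 of the loci was a DEG between genotypes at 30 °C in place of 2. With a 1.5-fold minimum, 1 locus (FAD7) was called for the difference of responses in place of 0. The calls rest on counting error alone. In edgeR's exact test with an assumed coefficient of variation of 0.2, the number of DEGs between temperatures was 1 in togr1-1 (FAD8) and 2 in the WT (FAD7 and FAD8), against 2 and 3, and between genotypes it was 0 at 30 °C and 0 at 25 °C, where 3 and 1 loci had an unadjusted p-value below 0.05 in the exact test. With 0.4 it was 0 in each of the 4 comparisons. The loci with an unadjusted p-value below 0.05 in that exact test were 1 in togr1-1 and 2 in the WT between temperatures and 0 between genotypes at either temperature. Shares of all loci with such p-values are not given here. Over all loci the counts with 0.2 were 272 in togr1-1 and 512 in the WT between temperatures and 393 at 30 °C and 187 at 25 °C between genotypes, against 2081, 2404, 1698 and 1246 in the exact binomial test. With 0.4 they were 11, 24, 32 and 20. With the 1.5-fold minimum they were 3745, 4221, 2852 and 2620, and 2597 against 1527 for the difference of responses.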
